A study of Mus musculus with 4 samples.

Results

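The epithelium of the mouse intestine, with cells rich in endocrine chromogranin RNA left out, was compared between embryonic day 17.5 (E17.5) and embryonic day 12.5 (E12.5). Some cells rich in hormone RNA remained, mostly at E17.5. Cells were chosen by their own measured RNA. A cell entered the comparison if it had at least 500 detected genes, at most 20% mitochondrial UMIs (unique molecular identifiers, the tags by which captured RNA molecules are counted) and at least 1 UMI of Epcam, an adhesion protein of epithelial cells. It also had to hold less than 0.1% of its UMIs in the chromogranins Chga and Chgb, less than 1% in the insulins Ins1 and Ins2, and less than 2% in the pancreatic enzymes Cpa1, Ctrb1, Cela1, Prss2 and Cel. This rule kept 3949 of 5216 barcodes at E12.5 (75.7%) and 2136 of 5232 at E17.5 (40.8%), together 6085 of the 22731 barcodes in the 4 libraries of the study. Both groups came from embryos of the Bmi1-GFP strain, which carries green fluorescent protein in the Bmi1 locus, a genotype shared by all 4 libraries. Bmi1-expressing epithelial cells were isolated by flow cytometry, per the series' design text, and sequenced with the droplet-based 10x Chromium 3′ kit. Each stage is represented by 1 library. The labels used here give neither the number of embryos per library nor the sorting gate. The dissection protocol names intestines at E12.5 and the small intestine from a later stage on, so that stage and the region taken cannot be told apart. With 1 library per stage no test between stages was possible, and every interval given below is an exact 95% interval that covers counting error only.

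At the earlier stage the intestinal tube is lined by a dividing, pseudostratified epithelium. Villi then form under the exchange of signals with the mesenchyme beneath, division becomes limited to the epithelium between villi, and the cells on the villi take on absorptive and secretory functions before birth. Absorptive enterocytes digest and take up nutrients through a brush border of microvilli, goblet cells secrete mucus, and the RNA-binding proteins and chromatin factors of the Lin28 and Hmga group are known for their activity in fetal cells.

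The chosen cells held 88411178 UMIs at E12.5, with a median of 19710 UMIs and 4824 genes per cell, and 52148651 UMIs at E17.5, with a median of 24585 UMIs and 4797.5 genes. Epcam, used in the choice, stood at 1338 UMIs per 1000000 (CPM) at E12.5 and 2210 CPM at E17.5, and 14 general epithelial genes summed to 3274 and 5543 CPM. At the edge of the rule, 193 chosen cells at E12.5 and 96 at E17.5 had exactly 1 Epcam UMI, while 265 and 390 cells that passed the quality limits had none and were left out. Cells with 0.05 to 0.1% chromogranin UMIs, just inside the limit, numbered 3 and 114, and those with 0.1 to 0.2%, just outside, numbered 5 and 279. Among the other genes that chose the cells, Ctrb1, a pancreatic protease, was at 0.305 and 123 CPM and had a UMI in 75.3% of the E17.5 cells, Ins2 was at 0.0226 and 13 CPM, and no chromogranin UMI was found in 98.3% and 75.7% of the cells. These values are descriptions of the choice. The mRNA of the reporter, eGFP, was at 23.0 CPM (22 to 24.1) in the E12.5 cells and at 0.844 CPM (0.613 to 1.13) in the E17.5 cells. A UMI of it was found in 36.6% and 2.06% of the cells. Bmi1 itself, a Polycomb protein gene, was at 15.7 and 8.23 CPM. Of the barcodes chosen, 2 were shared between the libraries.

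Of 14307 genes with at least 50 UMIs over both libraries, 1847 (12.9%) were at least 2-fold higher at E17.5 and 2711 (18.9%) at least 2-fold lower, together 31.9%, on the log2((CPM + 1)/(CPM + 1)) scale used throughout. A positive log2 ratio means a higher level at E17.5. The shares of 12.9% higher and 18.9% lower are the background for every list count below made with plain CPM over all chosen cells. The lists were written with earlier results of these data known, so that list counts describe the data and are no test. The median over all genes tested was −0.28, and the ratios of single genes are to be read relative to that shift. Genes higher at E17.5 made up 40.5% of those past 2-fold. With edgeR's TMM scaling, which lets most genes define the baseline, the median was −0.07 and the counts were 2316 higher and 2019 lower, so that the higher genes made up 53.4%. In sums over cells, fewer cells of a type and less RNA per cell cannot be told apart.

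**Figure D1:**
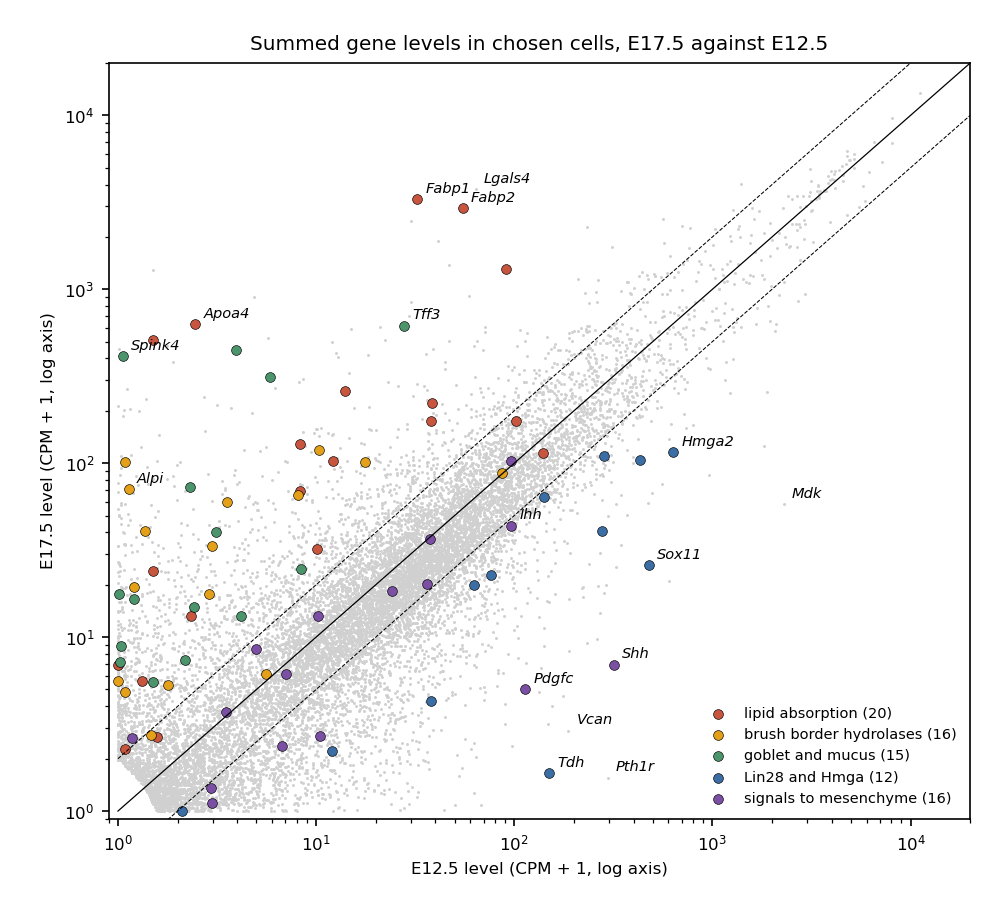
Level of each gene tested in the chosen cells at E12.5 (horizontal) and E17.5 (vertical), as CPM + 1 on log axes; grey points are all 14307 genes, coloured points are members of 5 lists, the solid line marks equal levels and the dashed lines a 2-fold difference. Lipid absorption and goblet genes lie above the upper dashed line in 17 of 20 and 15 of 15 cases, and all 12 genes of the Lin28 and Hmga list lie below the lower one.

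**Figure D2:**
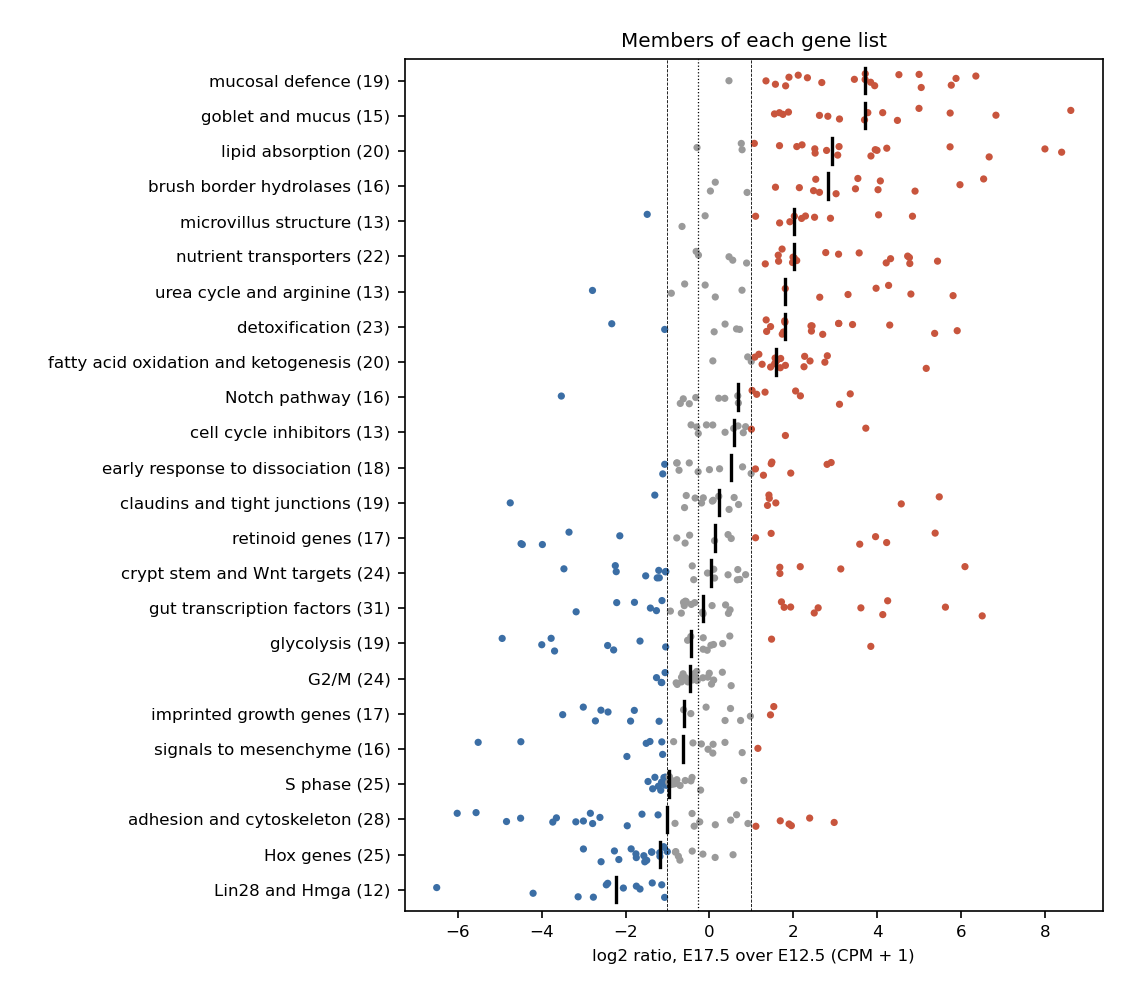
log2 ratio of E17.5 over E12.5 for each tested member of 24 gene lists, ordered by list median (black bar), with red for members at least 2-fold higher and blue for members at least 2-fold lower; the dotted line is the median of all genes tested (−0.28) and dashed lines mark 2-fold. List medians run from 3.71 for mucosal defence to −2.24 for the Lin28 and Hmga list.

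Genes of the absorptive enterocyte were mostly higher at E17.5. Of the digestive enzymes of the brush border, 13 of 16 tested members were at least 2-fold higher and none was 2-fold lower (median log2 ratio 2.82, or 3.25 with genes that had no UMI at E12.5 set at their lower bound), and their sum went from 131 to 728 CPM. Alpi, intestinal alkaline phosphatase, was at 0.136 CPM (0.0701 to 0.237) at E12.5 and at 70.3 CPM (68.0 to 72.6) at E17.5. Lct, the lactase that splits milk sugar, was at 0.373 CPM at E12.5 and 40.0 CPM at E17.5. Sis, the sucrase-isomaltase known from the epithelium after weaning, had no UMI at E12.5 and 4.58 CPM at E17.5, at least 135-fold higher against the level of 3 UMIs in the E12.5 library. The aminopeptidase Anpep was at 9.32 and 119 CPM, and the meprin subunit Mep1a at 2.56 and 58.9 CPM. Not all brush border enzymes differed. Dpp4, a dipeptidyl peptidase, was at 85.2 CPM (83.3 to 87.2) and 86.6 CPM (84.1 to 89.2), intervals that overlap.

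Of 13 structural genes of the microvillus, 10 were at least 2-fold higher at E17.5 and 1 was lower. The motor Myo1a was at 0.362 and 38 CPM, the microvillar cadherins Cdhr2 at 1.38 and 37.9 CPM and Cdhr5 at 8.01 and 65.5 CPM, and the actin bundler Vil1 at 45.8 and 176 CPM. These genes were far lower in the earlier epithelium. Ezr, the ezrin that ties microvillar actin to the membrane, was at 292 CPM at E12.5 and 272 CPM at E17.5. Espn, another actin bundler, went the other way, at 100.4 and 35.3 CPM (log2 ratio −1.48).

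The largest sum of UMIs in any absorptive list belonged to lipid uptake. Its 20 tested members summed to 542 CPM at E12.5 and to 9973 CPM at E17.5, and 17 were at least 2-fold higher with none 2-fold lower (median 2.92, or 3.07 with genes at their bound). Fabp1, a cytosolic carrier of fatty acids, was at 31.4 CPM (30.3 to 32.6) at E12.5 and at 3294 CPM (3278 to 3309) at E17.5. Its intestinal relative Fabp2 was at 53.9 and 2923 CPM. The apolipoproteins that coat secreted fat particles followed, with Apoa4 at 1.46 and 627 CPM, Apoc3 at 0.509 and 507 CPM, and Apoa1 at 89.4 and 1303 CPM. Apob, the structural protein of those particles, was already at 101 CPM at E12.5 and at 174 CPM at E17.5 (log2 ratio 0.78). Mttp, which loads lipid onto Apob, was at 12.9 and 260 CPM, the triglyceride-forming enzymes Mogat2 at 7.31 and 128 CPM and Dgat2 at 7.30 and 68.0 CPM, and the sterol importer Npc1l1 at 0.509 and 23.0 CPM.

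The promoters of Fabp1, Fabp2 and Alpi are shown because these absorptive genes have large ratios and because factors of the CDX and HNF4 families are known to act at such genes. These 3 were picked after their motif matches were seen. The sequences are from RefSeq on GRCm38.p6 and cover the 250 bases before the RefSeq start of each gene on its own strand. In the GENCODE M21 annotation Fabp1 starts at 71199827, inside the window shown. Capitals mark matches, on either strand, to the CDX motif TTTATNG or the HNF4 motif CAAAGTCCA. The windows are chr6:71199629-71199878 on the plus strand for Fabp1, chr3:122894822-122895071 on the plus strand for Fabp2 and chr1:87101607-87101856 on the minus strand for Alpi.
Fabp1: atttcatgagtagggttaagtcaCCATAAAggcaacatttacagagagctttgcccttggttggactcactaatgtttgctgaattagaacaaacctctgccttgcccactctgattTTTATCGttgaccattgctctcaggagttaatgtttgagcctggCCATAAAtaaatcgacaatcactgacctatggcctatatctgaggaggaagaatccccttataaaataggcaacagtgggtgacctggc
Fabp2: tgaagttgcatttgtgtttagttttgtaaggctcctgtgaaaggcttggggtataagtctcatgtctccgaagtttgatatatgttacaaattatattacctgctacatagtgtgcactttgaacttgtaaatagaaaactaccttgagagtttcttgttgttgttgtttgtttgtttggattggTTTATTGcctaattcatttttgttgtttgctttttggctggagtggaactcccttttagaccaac
Alpi: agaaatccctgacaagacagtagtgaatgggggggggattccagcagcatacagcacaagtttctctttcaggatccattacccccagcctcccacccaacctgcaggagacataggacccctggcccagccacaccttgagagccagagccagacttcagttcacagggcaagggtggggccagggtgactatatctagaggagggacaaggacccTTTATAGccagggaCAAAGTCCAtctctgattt
The Fabp1 window held 3 CDX matches, that of Fabp2 held 1, and that of Alpi held 1 CDX match and 1 HNF4 match. The windows of Apoa4, whose ratio is larger, and of Lct held no exact match, and Apoc3 had no entry in the promoter table. The Apoa4 window, chr9:46240594-46240843, also spans that gene's GENCODE start at 46240696, so that fewer bases before that start were searched. It holds CAAAGTTCA, a close variant of the HNF4 motif that the search did not count.

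In windows running from 250 bases before to 50 after the start, the HNF4 motif was found in 27 of 1407 genes at least 2-fold higher at E17.5 that had a window (1.92%), in 4 of 2029 at least 2-fold lower (0.197%), and in 62 of 10870 tested (0.570%). Over all 32851 windows of the table, 0.475% held it. Besides Alpi, the higher genes with the motif included the membrane mucin Muc13 (log2 ratio 5.74), the sulfotransferase Sult1b1 (5.37) and the amino acid transporter subunit Slc3a1 (4.21). The CDX motif is short and common. It was found in 11.3% of the higher genes, 7.79% of the lower genes, 8.35% of the genes tested and 10.9% of all windows, and in 6 of 14 lipid and 4 of 13 brush border genes with a window. The HNF4 motif, searched only in its exact letters, was in 0 of those 14 lipid and 1 of those 13 brush border genes. The GATA motif AGATAAG was in 3.98% of the higher and 2.02% of the lower genes, against 2.43% of the genes tested and 3.04% of all windows. The HNF1 motif was in 3 of all windows and in 0 of the genes tested. These matches are letters only, and binding was not measured. The part of these factors in the ratios was not tested.

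Of 22 transporters of sugars, amino acids, ions and bile acids, 17 were at least 2-fold higher at E17.5 and none 2-fold lower, and their sum went from 169 to 1098 CPM. Slc5a1, the sodium-glucose cotransporter, was at 2.34 and 65.6 CPM. Slc7a9, which takes up cystine and basic amino acids, was at 3.35 and 118 CPM, and Slc15a1, the peptide transporter, at 0.667 and 5.58 CPM. S100g, the calcium-binding calbindin of enterocytes, was at 35.0 and 426 CPM. The chloride-bicarbonate exchanger Slc26a3 had 3 UMIs at E12.5, or 0.0339 CPM (0.00700 to 0.0992), and 43.8 CPM at E17.5. Slc51b, a subunit of the basolateral bile acid exporter, had none at E12.5 and 26.2 CPM at E17.5, at least 773-fold higher against 3 UMIs. Slc40a1, the iron exporter, differed less, at 50.3 and 74.3 CPM.

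Several enzymes of citrulline and arginine metabolism were among the higher genes. Of 13 genes of the urea cycle and arginine metabolism, 7 were at least 2-fold higher and 1 lower, with sums of 514 and 3970 CPM. Cps1, which makes carbamoyl phosphate, was at 29.2 CPM (28.1 to 30.4) at E12.5 and 842 CPM (835 to 850) at E17.5. Otc, which forms citrulline, was at 2.73 and 208 CPM, and Nags, which makes the activator of Cps1, at 0.690 and 31.6 CPM. Ass1, which turns citrulline towards arginine, was at 9.01 and 156 CPM, while Asl, the next enzyme, was at 34.6 and 38.2 CPM. Oat, ornithine aminotransferase, was at 231 and 2291 CPM. Arg1, the arginase that breaks arginine down, was the 1 lower member, at 26.0 and 2.91 CPM.

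Of 20 genes of fatty acid oxidation and ketone body synthesis, 17 were at least 2-fold higher and none 2-fold lower, and all 20 had a positive ratio. With TMM scaling 19 were at least 2-fold higher. Cpt1a, which lets long-chain fatty acids into mitochondria, was at 3.55 and 29.6 CPM, and the thiolase Acaa2 at 115 and 556 CPM. Glycolysis showed a mixture. Of 19 genes tested, 8 were at least 2-fold lower at E17.5 and 2 higher, and the sum went from 7965 to 4755 CPM. The glucose transporter Slc2a3 was at 53.3 and 0.767 CPM, the hexokinase Hk2 at 103 and 6.63 CPM, Pkm at 1232 and 252 CPM, and Gapdh at 2694 and 855 CPM. Eno1 was at 284 and 16.9 CPM. Its near-identical copy Eno1b was at 1.89 and 0.403 CPM, and reads shared by such copies may be lost in counting, as for Gapdh. Other enzymes of the same pathway differed little, with Ldha at 1144 and 1102 CPM and Tpi1 at 556 and 692 CPM. The phosphofructokinase Pfkp was higher, at 2.25 and 45.8 CPM.

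Genes that handle vitamin A differed in both directions. Of 17 tested, 6 were at least 2-fold higher and 5 lower (median 0.12). Rbp2, the retinol carrier of enterocytes, was at 11 and 499 CPM, and Lrat, which stores retinol as ester, at 0.385 and 20.5 CPM. The retinoic acid binding protein Crabp2 was at 25.8 and 0.192 CPM. Rarb, a receptor of retinoic acid, was at 29.5 and 0.384 CPM. Cyp26b1, which degrades retinoic acid, was at 15.1 CPM at E12.5 with 1 UMI at E17.5. Of 23 detoxification genes, 17 were at least 2-fold higher and 2 lower, among them the exporter Abcc2 at 0.170 and 69.1 CPM, the sulfotransferase Sult1b1 at 3.73 and 194 CPM and the microsomal transferase Mgst1 at 106 and 581 CPM. Gstp1, a glutathione transferase, was lower, at 15.1 and 2.21 CPM.

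All 15 goblet and mucus genes were at least 2-fold higher at E17.5, and their sum went from 51.9 to 2008 CPM. Spink4 (GRCm38 chromosome 4, 40920052 to 40931395, plus strand), a secreted peptide of goblet cells, had the highest log2 ratio of the genes ranked by the naming rule, 8.61, at 0.0566 CPM (0.0184 to 0.132) and 413 CPM (407 to 418). Agr2, needed to fold mucins, was at 2.95 and 448 CPM, Tff3, a peptide secreted with mucus, at 26.7 and 617 CPM, and Muc2, the main secreted mucin, at 0.204 and 15.5 CPM. Atoh1, the transcription factor that commits cells to the secretory lineage, had 3 UMIs at E12.5 (0.0339 CPM) and 7.86 CPM at E17.5, and Spdef, which acts in goblet maturation, was at 3.19 and 12.3 CPM. Spink4 was seen in 22% and Muc2 in 7.07% of the E17.5 cells. Without the 345 cells in which 11 hormone genes held 0.1% or more of the UMIs, the E17.5 levels were 252 CPM for Spink4, 234 CPM for Agr2, 267 CPM for Tff3 and 8.26 CPM for Muc2. In those 345 cells they were 1704, 2171, 3434 and 73.6 CPM. The Agr2 log2 ratio was 6.83, and 5.89 without these cells.

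Among genes of mucosal defence, 18 of 19 tested were at least 2-fold higher and none 2-fold lower, with sums of 846 and 9085 CPM. Lgals4, a galectin of the enterocyte surface, was at 62.8 and 3751 CPM, the largest gain in CPM of any gene outside the exclusions of the naming rule. Lypd8, which binds flagellated bacteria, was at 29.1 and 2457 CPM. Ccl25, a chemokine that draws lymphocytes to the small intestine, was at 17.2 and 415 CPM, and the inflammasome sensor Nlrp6 at 7.77 and 125 CPM. Pigr, which carries immunoglobulin A across the epithelium, was at 0.0792 and 33.5 CPM. Reg3b, an antibacterial lectin, had no UMI at E12.5 and 53.3 CPM at E17.5, at least 1570-fold higher against 3 UMIs. H2-K1, a class I histocompatibility gene with close relatives, was at 35.3 and 231 CPM.

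Stem cell and Wnt target genes did not move as a group. Of 24 tested, 5 were at least 2-fold higher and 9 lower (median 0.03), against 12.9% and 18.9% of all genes tested. Their sums were 636 and 619 CPM. Olfm4, a secreted marker of crypt base cells, was at 0.396 CPM (0.276 to 0.551) and 94.1 CPM (91.5 to 96.8). Smoc2 was at 1.39 and 19.9 CPM and Ascl2, a transcription factor of crypt stem cells, at 3.38 and 18.6 CPM. Lgr5, the receptor of R-spondins that marks these cells, was at 8.08 CPM (7.49 to 8.69) and 15.5 CPM (14.4 to 16.6), short of 2-fold. The lower members included Wnt-responsive transcription factor genes. Sp5 was at 26.2 and 1.46 CPM, Tcf7 at 8.95 and 1.13 CPM and Sox9, a factor of progenitors, at 174 and 72.7 CPM, and Lef1 at 1.92 CPM with 1 UMI at E17.5. With TMM scaling 6 members were higher and 5 lower.

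In the Notch pathway 7 of 16 genes tested were at least 2-fold higher and 1 lower. The ligand Dll1 was at 1.72 and 11.2 CPM, the feedback inhibitor Nrarp at 1.81 and 27.8 CPM, and the receptor Notch1 at 16.8 and 19.8 CPM. Notch3, another receptor, was the lower one, at 21.6 and 0.959 CPM. Hes1, the target that represses Atoh1, was at 368 and 227 CPM. The count of 7 was 5 without the cells rich in hormone RNA and 3 among cells without a G2/M UMI.

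Signals that the epithelium sends to the mesenchyme differed by member. Of 16 genes tested, 7 were at least 2-fold lower and 1 higher, and their sum went from 756 to 260 CPM. After thinning 4 of 13 tested were lower, and among cells without a G2/M UMI 4 of 12. Shh (GRCm38 chromosome 5, 28456815 to 28467256, minus strand), the hedgehog ligand of the early gut tube, was at 316 CPM (312 to 320) at E12.5 and 5.94 CPM (5.30 to 6.64) at E17.5, and it was seen in 89.5% and 11.5% of the cells. Ihh, the other hedgehog ligand, was at 95.2 and 42.8 CPM and was seen in 72.2% and 53.2% of the cells. Pdgfc was at 112 and 4.03 CPM, whereas Pdgfa, a growth factor of the same family, was at 95.8 and 102 CPM. Wnt5a was at 9.51 and 1.69 CPM. Pth1r (GRCm38 chromosome 9, 110722085 to 110747145, minus strand), the receptor of parathyroid hormone-related peptide and not a member of this list, had the lowest log2 ratio of the genes ranked, −7.57, at 295 and 0.556 CPM.

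All 12 genes of the Lin28 and Hmga list were at least 2-fold lower at E17.5 (median −2.24, or −2.44 with the gene at 0 at its bound), against 18.9% of all genes tested, and their sum went from 2572 to 499 CPM. With TMM scaling 11 of them were 2-fold lower. The list also holds Tdh, and earlier results of these data were known when it was written. A count of this kind was therefore likely beforehand. Hmga2, a chromatin protein of fetal progenitors, was at 634 CPM (629 to 639) and 115 CPM (112 to 117). The RNA-binding proteins Igf2bp1 and Igf2bp3 were at 276 and 39.7 CPM, and at 281 and 109 CPM. Lin28b, which blocks maturation of the let-7 microRNAs, was at 11 and 1.23 CPM. Lin28a was at 1.10 CPM at E12.5 and had no UMI at E17.5, at least 19.1-fold lower against 3 UMIs. The transcription factor genes Sox11 and Sox4 were at 478 and 25 CPM and at 429 and 103 CPM, and Tdh, threonine dehydrogenase, was at 149 and 0.652 CPM (log2 ratio −6.50).

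Imprinted growth genes, each expressed from 1 parental copy, were divided. Of 17 tested, 8 were at least 2-fold lower and 2 higher. Peg3 was at 961 and 84.1 CPM, Grb10, an inhibitor of growth factor receptors, at 297 and 48.6 CPM, and the noncoding RNA Meg3 at 621 and 168 CPM. The noncoding RNA H19, in contrast, was at 710 CPM (705 to 716) and 1398 CPM (1388 to 1408), and Cdkn1c, a cell cycle inhibitor, at 381 and 493 CPM. Igf2, the neighbour of H19, was at 9.99 and 17.4 CPM.

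Of 31 gut transcription factors tested, 10 were at least 2-fold higher and 6 lower (median −0.16, mean 0.63). Cdx1, a caudal-type factor, was at 1.05 CPM (0.849 to 1.29) and 100.2 CPM (97.6 to 103), seen in 2.20% and 68.6% of cells. Its relative Cdx2, which sets intestinal identity, was at 306 and 205 CPM (log2 ratio −0.57). Hnf4a and Hnf4g, nuclear receptors of the enterocyte, were at 24.5 and 86.8 CPM and at 21.7 and 73.4 CPM. Creb3l3, a regulator of lipid genes, had 3 UMIs at E12.5 (0.0339 CPM) and 92.7 CPM at E17.5. Maf was at 3.09 and 76.7 CPM, and Nr1h4, the bile acid receptor, at 3.90 and 58.9 CPM. Foxa1, a pioneer factor of endoderm, was at 145 and 15.2 CPM, and Id2, an inhibitor of helix-loop-helix factors, at 737 and 158 CPM. Gata4 and Gata6 stayed within 2-fold, at 41.7 and 27.2 CPM and at 128 and 114 CPM.

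Hox genes, which mark position along the gut, are read here beside the region dissected. Of 25 tested, 17 were at least 2-fold lower at E17.5 and none higher (median −1.19, or −1.37 with genes at 0 at their bound). Hoxb13, a gene of the most posterior gut, was at 7.02 CPM in 2.56% of the E12.5 cells and had no UMI at E17.5, at least 122-fold lower against 3 UMIs. Hoxa13 and Hoxd13 were likewise at 1.96 and 1.27 CPM at E12.5 with none at E17.5. Hoxb9 was at 7.63 and 0.441 CPM, and Hoxb7 at 10.2 and 11.3 CPM. Leaving out every cell with a UMI of Hoxa13, Hoxb13, Hoxd11, Hoxd12 or Hoxd13 kept 3753 and 2136 cells, in which 12 of 21 Hox genes tested were at least 2-fold lower, a count that the removal itself can lower. The brush border, lipid and goblet counts were 13 of 16, 17 of 20 and 15 of 15 in those cells, and all 12 members of the Lin28 and Hmga list were lower.

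Genes of DNA replication stood lower at E17.5 in plain CPM, and genes of mitosis differed less. Of 25 S phase genes, 11 were at least 2-fold lower and none higher (median −0.96), and with TMM scaling 3 were lower and 1 higher. With TMM scaling 2019 of all 14307 genes tested were at least 2-fold lower, so that the S phase count was near that share. The count also depended on the cells used, as given further below. Of 24 genes of G2 and mitosis (G2/M), 4 were at least 2-fold lower and none higher, with sums of 3694 and 2940 CPM. Among all genes tested 18.9% were 2-fold lower and 12.9% higher, so that the count of lower G2/M genes was near the share of all genes. Mki67, a nuclear protein of dividing cells, was at 170 CPM (168 to 173) and 166 CPM (163 to 170). Birc5, of the chromosomal passenger complex, was at 278 and 398 CPM, while the centromere protein Cenpf was at 395 and 164 CPM. Among cell cycle inhibitors 3 of 13 were higher, against 12.9% of all genes tested. They included Cdkn2b at 2.23 and 41.7 CPM, whereas Cdkn1a was at 147 and 140 CPM.

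Junction and surface genes differed in both directions. Among 19 claudins and tight junction genes 6 were at least 2-fold higher and 2 lower. Cldn6, a claudin of embryonic epithelia, was at 262 and 8.78 CPM, while the pore-forming Cldn2 and Cldn15 were at 2.34 and 78.5 CPM and at 0.905 and 83.9 CPM. Of 28 adhesion and cytoskeleton genes 14 were lower and 6 higher. The intermediate filament Vim was at 474 and 58.1 CPM and the matrix proteins Fn1 and Vcan at 188 and 7.34 CPM and at 186 and 1.90 CPM. Tuba1a was at 602 and 20.1 CPM, but its close relatives Tuba1b and Tuba1c were at 850 and 457 CPM and at 97.9 and 179 CPM. The epithelial keratin Krt19 was at 258 and 966 CPM and the intestinal cadherin Cdh17 at 29.9 and 242 CPM.

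Early response genes, which can be switched on while tissue is dissociated, were at least 2-fold higher in 7 of 18 cases and lower in 2, with sums of 8180 and 5841 CPM. The transcription factor Fos was at 222 and 543 CPM and the heat shock protein Hspa1a, which has a near-identical copy, at 7.85 and 60.8 CPM. The chaperone Hsp90aa1 was at 2295 and 1095 CPM. The part of tissue handling in these values was not tested.

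The genes with the highest and lowest ratios, ranked over genes that reached 200 UMIs and 10% of cells in the library with the higher level, included genes outside the lists. Aadac, a lipid-metabolising deacetylase, was at 0.113 and 265 CPM (log2 ratio 7.90), and Ckmt1, the mitochondrial creatine kinase, at 0.905 and 379 CPM (7.64). Dmbt1, a secreted scavenger protein, was at 0.0679 and 201 CPM (7.56), Prap1 at 3.87 and 901 CPM (7.53), and Eps8l3 at 0.147 and 203 CPM (7.48). Jaml, Phgr1, Agmat and Tm4sf20 had ratios of 7.40, 7.29, 6.57 and 6.52. At the other end Mdk, the growth factor midkine, was at 2289 and 57.2 CPM (−5.30) and was seen in 98% and 32.4% of the cells. The potassium channel genes Kcnq3 and Kcnk2 were at 67.0 and 0.0767 CPM and at 61.7 and 0.268 CPM. Igdcc3, Agtpbp1, Palm3, Igfbp2 and Rcan2 had ratios of −5.55, −5.35, −5.27, −5.26 and −5.04, and Car14 had 43.1 CPM at E12.5 with 1 UMI at E17.5. The largest losses in CPM were those of Hsp90ab1 (5883 and 3224), Malat1 (5483 and 2981), Mdk, Ftl1 (2930 and 942) and Gapdh. After Lgals4, Fabp1, Fabp2 and Lypd8, the actin-binding Tmsb4x (1401 and 4023) had the next gain.

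RNA of other cell types was present in the sums and moved with stage. Although chromogranin-rich cells had been left out, 25 of 29 endocrine markers were at least 2-fold higher at E17.5, with sums of 131 and 4735 CPM. Ghrl was at 0.498 and 1290 CPM and Cck at 0.758 and 470 CPM, and Neurog3, the factor that starts endocrine differentiation, was at 0.498 and 17.5 CPM in the E17.5 cells, 113 of which had a UMI. In 1 chosen cell at E12.5 and 169 at E17.5 (7.91%), 11 hormone genes held 1% or more of the UMIs. Leaving out the 345 E17.5 cells with 0.1% or more of UMIs in these genes gave 1777 genes higher and 2852 lower. The mesenchyme markers summed to 89.6 and 240 CPM, against 34794 CPM in the 194 Epcam-negative mesenchymal cells of the E17.5 library, with 13 of 17 higher. Acta2 was at 0.995 and 60.6 CPM and Col1a1 at 0.532 and 22 CPM, while Postn went the other way, at 63.3 and 1.04 CPM. Without hormone-bearing cells and cells holding 0.1% or more mesenchyme UMIs, 12 of 15 brush border, 17 of 20 lipid and 15 of 15 goblet genes were at least 2-fold higher and 12 of 12 Lin28 and Hmga genes lower. Pancreatic acinar markers summed to 119 and 882 CPM, and to 983 CPM in the mesenchymal cells. The sums of liver markers were 673 and 249 CPM, with Serpina1a, a protease inhibitor with close relatives, at 271 and 12.8 CPM and Alb at 2.70 and 0.134 CPM. Markers of the pancreatic progenitor list summed to 70.4 and 48.6 CPM, of the stomach to 12.9 and 55.0 CPM (Tff2 at 2.25 and 41.7 CPM), of neural crest to 16.9 and 25 CPM, of mesothelium to 7.84 and 24.6 CPM and of tuft cells to 2.00 and 3.28 CPM. Paneth cell markers summed to 0.0679 and 292 CPM. Markers of blood and vessels were low: the endothelial list summed to 2.66 and 1.13 CPM, the leukocyte list to 0.961 and 8.17 CPM with Ptprc at 0, and the erythroid list to 0.939 and 4.20 CPM.

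To compare shares of cells at equal depth, each cell was thinned to 4000 UMIs, which kept 3541 cells at E12.5 and 2011 at E17.5 and left out 408 and 125. At least 3 UMIs of the lipid list were found in 34.0% of the E12.5 cells and 77.5% of the E17.5 cells. In 172 Epcam-negative mesenchymal cells of the E17.5 library the share was 12.8%. That cell type should lack these genes and serves as a rough guide to free RNA in that library. Its cells were shallower before thinning and doublets were kept, so that its share is not an exact background for the chosen cells. The corresponding shares were 2.77%, 36.1% and 0% for the brush border list, where 0 of 172 cells allows a share of up to 1.74% by the level of 3 cells and 2.12% by the exact interval, and 0.480%, 35.5% and 2.33% for the goblet list. Without thinning, the shares in the chosen cells at E12.5 and E17.5 were 84.9% and 88.2% for lipid, 47.6% and 78.7% for brush border, and 15.9% and 80.8% for goblet genes. The G2/M list reached 3 UMIs in 79.6%, 62.6% and 31.4%. Endocrine markers did so in 1.24% and 21.5% of the chosen cells and 41.3% of the mesenchymal cells. At a minimum of 5 UMIs the E17.5 shares were 16.0% in chosen and 12.2% in mesenchymal cells, and the summed levels were 4735 and 597 CPM, so that the order depends on the minimum. The Lin28 and Hmga list reached 3 UMIs in 99.5% and 34.1% of the thinned cells, with 23.8% in the mesenchymal cells. For the stem and Wnt list the shares were 45.3% and 37.6%, with 56.4% in the mesenchymal cells, and for the imprinted list 100% and 92.0%, with 100%. Mesenchymal cells had these lists at 801 and 12088 CPM, so that their shares are no measure of free RNA here. Median depths before thinning were 21555 UMIs at E12.5, 25638 at E17.5 and 6606.5 in the mesenchymal cells. The E12.5 library had 7 Epcam-negative mesenchymal cells, too few for a background of its own.

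**Figure D3:**
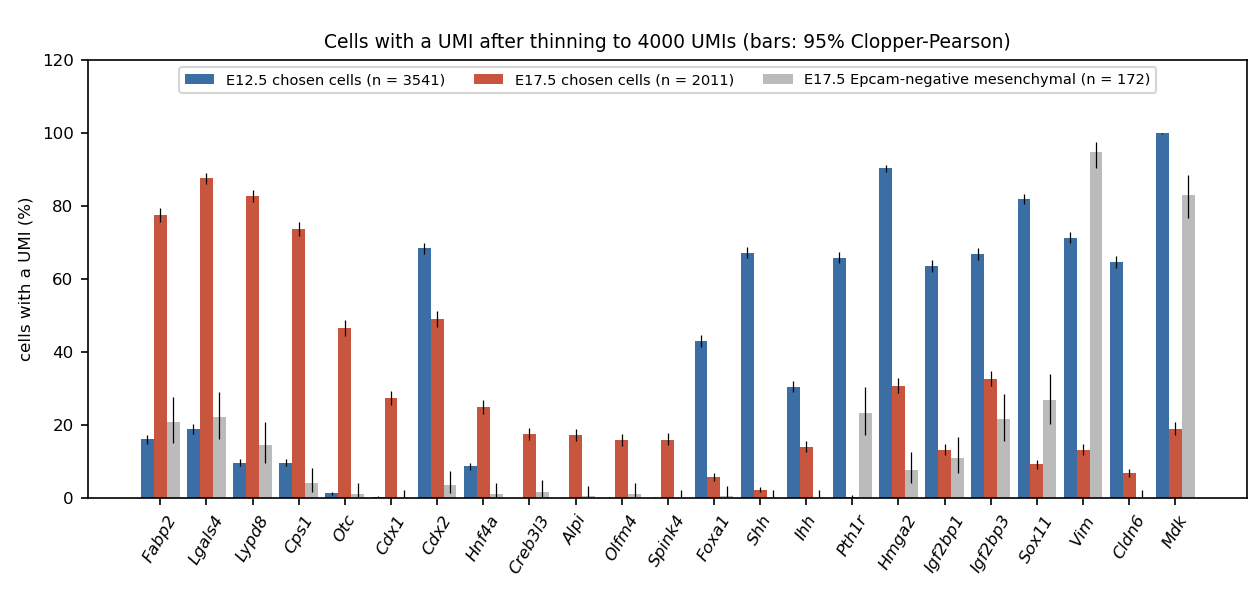
Share of cells with at least 1 UMI of each of 23 genes after thinning to 4000 UMIs (vertical axis, percent) in chosen cells at E12.5 (n = 3541) and E17.5 (n = 2011) and in Epcam-negative mesenchymal cells at E17.5 (n = 172); the thin lines on the bars are exact 95% intervals for counting error. Lypd8 was seen in 9.71% and 82.7% of the chosen cells and Shh in 67.2% and 2.24%, with 14.5% and 0% in the mesenchymal cells.

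Single genes behaved in different ways across cells. After thinning, Lypd8, Lgals4, Fabp2 and Cps1 were seen in 82.7%, 87.6%, 77.5% and 73.7% of the E17.5 cells, whereas Alpi and Spink4 were seen in 17.3% and 16.0%. Fabp1 was seen in 10.5% and Lgals4 in 18.9% of the E12.5 cells, for which no background of the same library could be had. In the E17.5 mesenchymal cells the shares were 19.8% and 22.1%. Cdx2 was seen in 68.4% and 48.9% of cells, and Cdx1 in 0.339% and 27.3%. Among genes of the early epithelium, Hmga2 was still seen in 30.8% of the E17.5 cells, Igf2bp3 in 32.7%, against 7.56% and 21.5% of the mesenchymal cells. Sox11, Tdh and Pth1r were seen in 9.20%, 0.497% and 0.398% of the E17.5 cells, all below the mesenchymal cells (26.7%, 1.74% and 23.3%).

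Cells at E17.5 were less alike than at E12.5 in their absorptive and mucus genes. The lipid list took a median of 0.0504% of a cell's UMIs at E12.5, with a 95th percentile of 0.110%, and a median of 0.225% at E17.5, with a 95th percentile of 6.85%. The goblet list went from a 95th percentile of 0.0183% to 1.20% with a median of 0.0398%. The arginine list was more even, with a median of 0.0497% at E12.5 and 0.395% at E17.5. At E17.5, the 214 cells with the most Fabp1 held 77.6% of its UMIs, and the same number of cells richest in Spink4 held 97.4% of that gene's UMIs. For Hmga2 this share was 34.3%. Of 713 cells with at least 3 goblet UMIs after thinning, 570 (79.9%) also had 3 or more lipid UMIs, against 77.5% of all cells.

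**Figure D4:**
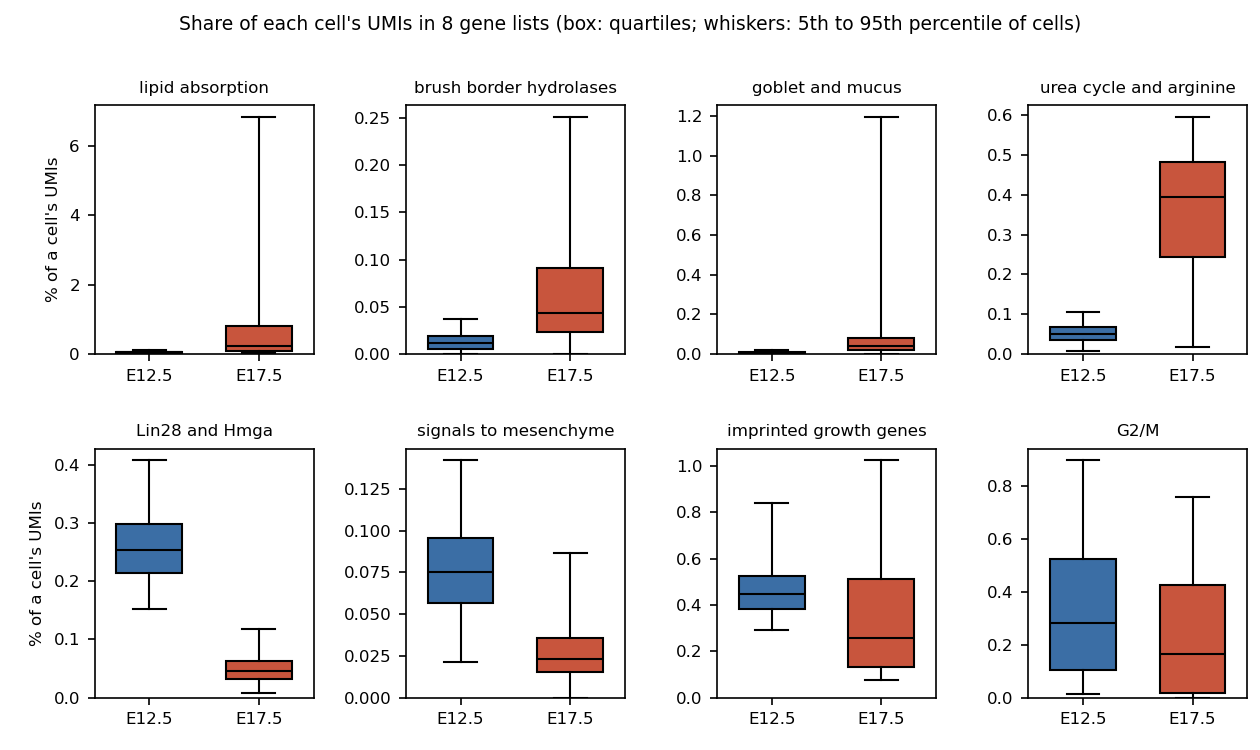
Percent of each chosen cell's UMIs in 8 gene lists at E12.5 and E17.5; boxes are quartiles with the median and whiskers run from the 5th to the 95th percentile of cells. The lipid list spans a wider range at E17.5 (median 0.225%, 95th percentile 6.85%) than at E12.5 (0.0504% and 0.110%).

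The lipid list at E17.5 stood higher in cells without mitotic UMIs than in cells with them. After thinning, 1259 E17.5 cells had at least 3 G2/M UMIs and 438 had none, against 2818 and 273 cells at E12.5. These are read as classes by UMI and not as counts of dividing cells. The lipid list stood at 4481 CPM in the E17.5 cells with G2/M UMIs and at 29952 CPM in those without, and at 552 and 450 CPM in the corresponding E12.5 cells. Fabp1 was at 1029 and 11702 CPM, Apoa4 at 174 and 2041 CPM, Lct at 10.1 and 146 CPM, and Creb3l3 at 39.2 and 269 CPM in the E17.5 cells with and without G2/M UMIs. By cells rather than level, 1082 of 1559 E17.5 cells with at least 3 lipid UMIs (69.4%) also had at least 3 G2/M UMIs, against 62.6% of all thinned cells, and 51.9% of those with 3 brush border UMIs did. The opposite order of levels held for Olfm4 at 118 and 20.3 CPM and for Lgr5 at 19 and 3.1 CPM. Cdx1 was at 113 and 61.4 CPM, Cps1 at 957 and 441 CPM, and Lgals4 at 3558 and 4434 CPM, against 1.05, 29.2 and 62.8 CPM over all chosen E12.5 cells. In the E17.5 cells without G2/M UMIs the endocrine markers stood at 16559 CPM, against 1608 CPM in the cells with them. Mesenchyme markers stood at 538 and 110 CPM, liver markers at 687 and 122 CPM and acinar markers at 1616 and 681 CPM in the same order, and the part of these in the values above was not tested. Genes of the early epithelium were low in both classes, with Shh at 6.88 and 4.00 CPM and Hmga2 at 132 and 54.3 CPM at E17.5, against 312 and 345 CPM and 630 and 656 CPM at E12.5.

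**Figure D5:**
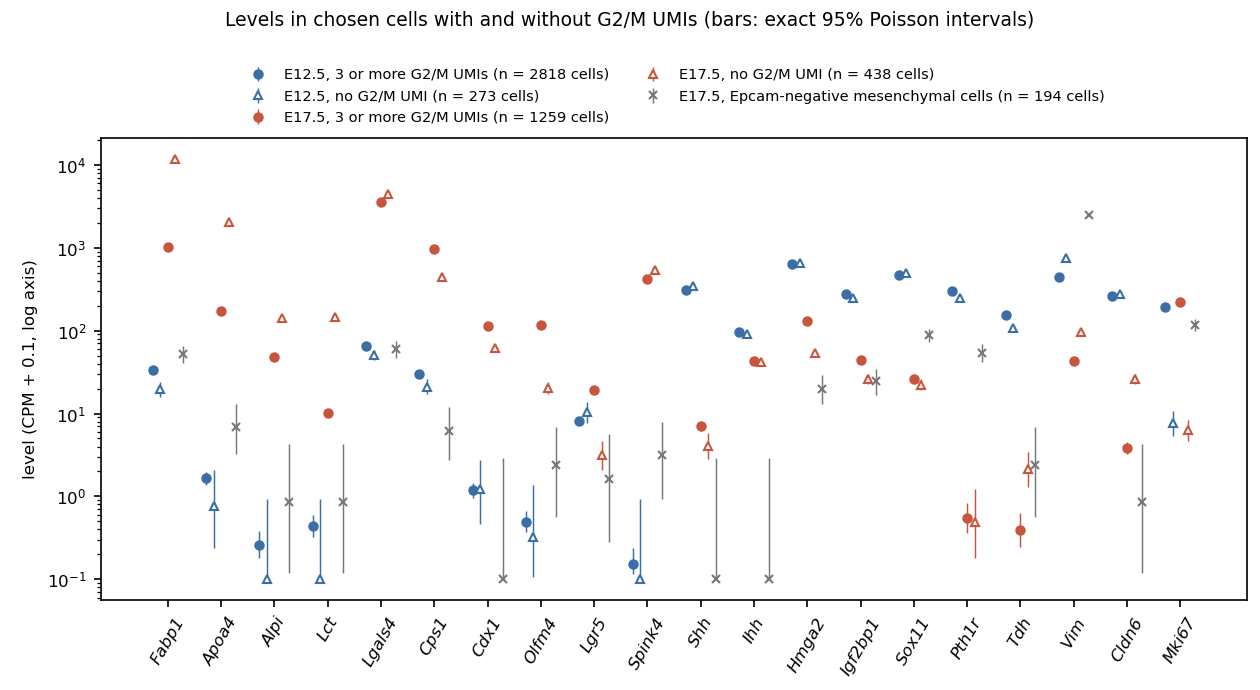
Levels of 20 genes (CPM + 0.1, log axis) in chosen cells with at least 3 (circles) or no (triangles) G2/M UMIs after thinning, at E12.5 (n = 2818 and 273) and E17.5 (n = 1259 and 438), and in 194 Epcam-negative mesenchymal cells at E17.5 (crosses); bars are exact Poisson 95% intervals. Fabp1 was at 1029 and 11702 CPM in the E17.5 cells with and without G2/M UMIs, while Shh was low in both, at 6.88 and 4.00 CPM.

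The same rule kept 1127 cells of the adult library, also 1 library, or 17.9% of its barcodes. Their levels are given beside the E17.5 values. These cells had a median of 4934 UMIs, 1725 genes and 12.6% mitochondrial UMIs, against 24585, 4797.5 and 4.49% at E17.5. Stage and the mixture of cell types cannot be told apart in these levels. The genes higher at E17.5 than at E12.5 stood on either side of their E17.5 level in the adult. Fabp1 was at 8274 CPM there against 3294, Spink4 at 2898 against 413, Sis at 122 against 4.58, Pigr at 1100 against 33.5, and Olfm4 at 974 against 94.1. Others were lower in the adult, with Apoa4 at 247 CPM against 627, Fabp2 at 1527 against 2923, Lct at 16.1 against 40.0, Ass1 at 5.19 against 156 and Mep1a at 5.32 against 58.9. Tdh, Igf2bp1 and H19 had no UMI in the adult cells, Shh was at 0.321 CPM and Hmga2 at 11.2 CPM. Defa24, a defensin of Paneth cells, was at 64008 CPM in the adult, a level that lowers the CPM of other genes there.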

How the data were processed

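The deposited matrices hold raw UMI counts per gene and barcode, made by the authors with Cell Ranger 3.1.0 on mm10, per the submitters' processing notes; how barcodes were selected is not given in the sources used here. UMIs were summed over the chosen cells of each library, scaled to CPM and compared as log2 ratios with a pseudocount of 1 CPM (python 3.11.15, with pandas 2.3.3, numpy 2.4.6, scipy 1.17.1 and matplotlib 3.10.9). Levels have exact Poisson and shares exact Clopper-Pearson 95% intervals. The library totals were 90674425 UMIs at E12.5 and 77677622 at E17.5. The ratio step was tested on simulated data. Symbols carried by more than 1 gene ID were left out of the lists. Genes named are list members, the reporter genes, the 15 highest and 15 lowest ratios, and the 5 with the largest gain and the 5 with the largest loss, leaving out mitochondrial, ribosomal, haemoglobin, immunoglobulin, sex-linked and predicted genes, the genes of the cell rule, and endocrine and acinar markers. Cells and lists were chosen with earlier results of these data known. Doublets were kept. Scrublet (scanpy 1.11.5) marked 0 and 26 cells by its own threshold, and an alternative left out its highest scores at 0.8% per 1000 barcodes. Other alternatives changed the cell limits, depth, scaling (TMM, edgeR 4.0.16 in R 4.3.3), pseudocount and count filter.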

Additional observations from a re-analysis of the deposited data

How the results depend on the processing

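No paired analysis was possible because each stage has 1 library and the labels give no replicate numbers. The 680 values of named genes under the alternatives all kept their direction. Most of these genes were picked from the same data for extreme ratios or CPM changes. Kept signs were therefore likely beforehand and say little about other genes. Of 480 list counts, 454 stayed within 1.5 times the main count. The alternatives without hormone-bearing cells, without these and mesenchyme-bearing cells, and without cells bearing posterior Hox UMIs were chosen after seeing the data. A pseudocount of 10 CPM gave 836 genes higher and 967 lower, 10 transporters, 9 goblet, 9 detoxification and 1 Notch gene higher, and 2 stem, 2 signal, 0 Hox, 4 S phase and 2 G2/M genes lower. TMM scaling gave 5 stem, 3 S phase and 1 G2/M genes lower. In the 273 and 438 cells without G2/M UMIs after thinning, 3 Notch genes and 5 cell cycle inhibitors were higher and 4 signal, 6 Hox and 23 S phase genes lower. Of all 10698 genes tested there, 1757 were higher and 2559 lower. In the 3550 and 1600 cells with at least 3 G2/M UMIs before thinning, a wider class than that used above, 6 S phase genes were lower. Of all 14053 genes tested in that class, 2856 were lower. Thinning to 4000 UMIs gave 3 Notch genes higher and 4 signal, 5 imprinted, 10 Hox and 18 S phase genes lower. The mean of each cell's CPM gave 5 imprinted and 18 S phase genes lower and 5 inhibitors higher. A pseudocount of 0.1 CPM gave 2262 genes higher and 3626 lower, and the alternatives other than the 2 pseudocounts and TMM gave 1575 to 2086 higher and 2018 to 2921 lower. Thinned to 2000 UMIs, the shares of cells at E12.5 and E17.5 were 10.5% and 62.0% for lipid, 0.526% and 19.8% for brush border, 0.0831% and 20.4% for goblet, 68.5% and 53.4% for G2/M, 98.5% and 75% for imprinted, and 14.4% and 17% for stem and Wnt genes, an order opposite to that at 4000 UMIs. The cause of these shifts was not tested.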

Other observations

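Some E17.5 cells carried RNA of Paneth cells, the antimicrobial cells of the crypt base. Defa24 had no UMI in the 3949 chosen cells at E12.5 and 11042 UMIs in 213 chosen cells at E17.5, or 9.97% of them, and 105 of these cells had 10 or more, a limit set after the values were seen. In those 105 cells Defa17 was at 978 CPM, against 2.30 CPM in the other 2031 cells. Defa17 is of the same defensin family, so that its level is not independent of the choice by Defa24. The 105 cells were also deeper, with a median of 32726 UMIs against 24061 in the others. The lysozyme gene Lyz1 was at 48.1 and 4.42 CPM, the antimicrobial ribonuclease Ang4 at 24.9 and 2.07 CPM, and the defensin-processing protease Mmp7 at 17.7 and 1.09 CPM. Genes of goblet cells stood high in the same cells, with Spink4 at 4308 and 137 CPM, Tff3 at 3915 and 384 CPM, Muc2 at 158 and 5.34 CPM, and Atoh1 at 59.7 and 4.19 CPM. Mki67 was at 209 and 163 CPM and Olfm4 at 144 and 90.6 CPM, while Fabp1 was lower, at 920 and 3462 CPM. The antibacterial lectin gene Reg3b was also lower, at 18.3 and 55.8 CPM. Of 11 hormone genes, only Gcg, at 821 and 588 CPM, and Sct, at 998 and 680 CPM, were higher in the 105 cells. The others were lower there, among them Ghrl at 243 and 1364 CPM, Sst at 4.93 and 487 CPM and Cck at 45.2 and 500 CPM. Of the 11042 Defa24 UMIs, 4563 lay in the 345 cells with 0.1% or more of UMIs in these hormone genes. These cells come from 1 library, and doublets were not removed. The part of hormone-bearing cells in these values was not tested.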
